A study of Rattus norvegicus with 8 samples.

Results

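The 52 genes described here act in, brake or mark the cell cycle. They cover origin licensing factors, DNA synthesis enzymes, cyclins and their kinases, and cyclin-dependent kinase (CDK) inhibitors. They also cover transcription factors of the cycle, mitotic kinases, spindle and cytokinesis proteins, and markers of proliferation. The rule takes them by name from a list of cell cycle and replication genes and asks for at least 10 exon reads in 2 libraries. It uses no other measured value, but the list was drawn up with earlier results of these data known. Of these, 51 had a row among the 32258 features of the deposited table, and Ccnb2 was not analysed here. All 51 had at least 10 exon reads in 2 or more libraries and were among the 12407 genes tested. Each gene was placed in 1 of 9 roles.

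Expression was measured by strand-specific paired-end sequencing of poly(A) RNA from H9C2, a rat cardiomyoblast cell line from embryonic heart that divides in culture. The cells were transduced for 2 days with pDC316 vectors, all of which carried YFP, and each of the 4 groups held 2 libraries (n = 2). In the S280D group YFP was fused to PPARα with aspartate in place of serine 280, which mimics phosphorylation. The S280A fusion carried alanine there, which cannot be phosphorylated, the WT group received the fusion with the wild-type receptor, and the YFP group received YFP with no receptor. PPARα is a nuclear receptor that activates genes of fatty acid use. The sources used here do not give the promoter that drives the fusion or the share of cells that took it up. The labels do not say whether the 2 libraries of a group were grown apart, and p-values then reflect the spread between these samples alone.

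In G1, licensing factors load the MCM helicase onto replication origins, and D-type cyclins with Cdk4 or Cdk6 start the inactivation of the retinoblastoma protein. This frees E2F factors, which switch on genes of DNA replication. Later in the cycle a complex of MuvB proteins with Mybl2 and Foxm1 switches on mitotic genes, many of whose promoters hold a cell cycle homology region (CHR) and CCAAT boxes. Cardiac muscle cells leave the cycle soon after birth, whereas H9C2 myoblasts keep dividing.

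Exon reads totalled 39526013 and 21050137 for the S280D libraries, 14693406 and 14018785 for S280A, 19229424 and 16698202 for WT, and 17252523 and 19070170 for YFP, here and throughout in the order of the replicate numbers. Levels are TMM-scaled CPM. They are reads of a gene relative to the library's exon reads over the genes tested, multiplied by the library's TMM factor, and not shares of these totals. Ppara, which takes in reads of the construct, stood at 12380 to 24130 CPM in the 6 libraries with a receptor and at 59.5 and 74.4 CPM in YFP. Of 10 myoblast and muscle markers, Vim, Acta2 and Tnnt2 were abundant, at a minimum of 6330, 6830 and 129 CPM in any library. Chrna1 was at 0 in all 8 libraries, Myog did not exceed 0.82 CPM and Myod1 0.536 CPM. Des did not exceed 0.894 CPM and Actc1 1.33 CPM. The summed level of the 10 markers was almost wholly that of Vim and Acta2 (at most 10500 and 14100 CPM), and does not show the level of the others. This sum ranged from 13500 to 15000 CPM in S280D, 19600 to 24900 CPM in S280A, 14800 to 15700 CPM in WT, and 17300 to 21000 CPM in YFP. Of the markers of other cell types, Ptprc (leukocytes) was at 0 in all 8 libraries, Epcam (epithelium) and Cdh5 (endothelium) in 7, Alb (hepatocytes) in 6, and Krt8 at 13.7 to 22.5 CPM was the most abundant.

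Other properties of the libraries ran with the constructs. Over all genes, a gene's level relative to its mean in the 8 libraries correlated with exon length, at a Spearman's rho of 0.238 and 0.211 for the S280D libraries, -0.14 and -0.232 for those of S280A, 0.129 and 0.158 for WT, and -0.247 and -0.0648 for YFP. Mitochondrial transcripts made up 1.66% and 1.4% of exon reads for S280D, 0.791% and 0.49% for S280A, 1.37% and 1.17% for WT, and 0.506% and 0.604% for YFP. Lane 1 held both YFP libraries and lane 2 both WT libraries, so lane and construct cannot be told apart between these groups, while S280D and S280A had 1 library per lane. The part of these properties, and of the muscle markers, in the results below was not tested, apart from the lane and exon length values given.

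The cell cycle genes did not move as 1 group. Most spindle, kinetochore and cytokinesis genes, with Mki67 and Top2a, were higher in S280D and WT than in S280A and YFP, while most licensing genes were lowest in S280D. Kif20a, Tpx2 and Prc1 among the spindle genes and Mcm4 among the licensing genes had no such order: none of these passed in S280D against S280A (adjusted p of 0.58, 0.561, 0.27 and 0.311). With a threshold of 0.05 on the adjusted p of edgeR's quasi-likelihood test, 15 of the 51 genes were higher and 14 lower in S280D than in S280A. That is 56.9% of them, beside 39.3% of all genes tested, and for the directions 21.3% of all genes were higher and 18% lower. The same test gave each gene's adjusted p, by the Benjamini-Hochberg method over all genes. In bulk RNA a smaller share of cells in a phase of the cycle and less RNA per cell cannot be told apart.

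Against YFP, 16 genes were higher and 8 lower in S280D, 47.1% of the members beside 30.7% of all genes (17.1% higher and 13.7% lower). In WT 22 were higher and 3 lower than in YFP, 49% beside 19.6% of all genes (12.2% higher and 7.45% lower). In S280A 5 were higher and 13 lower than in WT, 35.3% beside 26% of all genes (10.1% higher and 15.9% lower). The comparisons with YFP share the YFP libraries, and those of S280D and of WT with S280A share the S280A libraries.

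No member passed in S280A against YFP (adjusted p of at least 0.113 in edgeR), where 0.0403% of all genes did. At an unadjusted p under 0.05, 12 members (23.5%) stood out in that comparison beside 11.6% of all genes, and DESeq2 called 1 member beside 0.806% of all genes. Between S280D and WT no member passed either (adjusted p of at least 0.802 in edgeR), beside 0.0403% of all genes. There 10 members (19.6%) had an unadjusted p under 0.05 beside 4.88% of all genes, and DESeq2 called 0 beside 0.322% of all genes. A test of any difference among the 4 groups, with 3 degrees of freedom, called 32 of the 51, or 62.7% beside 36% of all genes.

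The median log2 fold change of the members lay near that of all genes between the mutants, at -0.10 beside -0.01 for S280D against S280A. It was 0.16 beside -0.02 for S280D against YFP, -0.07 beside 0.01 for S280A against WT, and 0.26 beside -0.01 for WT against YFP. These medians average over roles that went opposite ways.

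**Figure D1:**
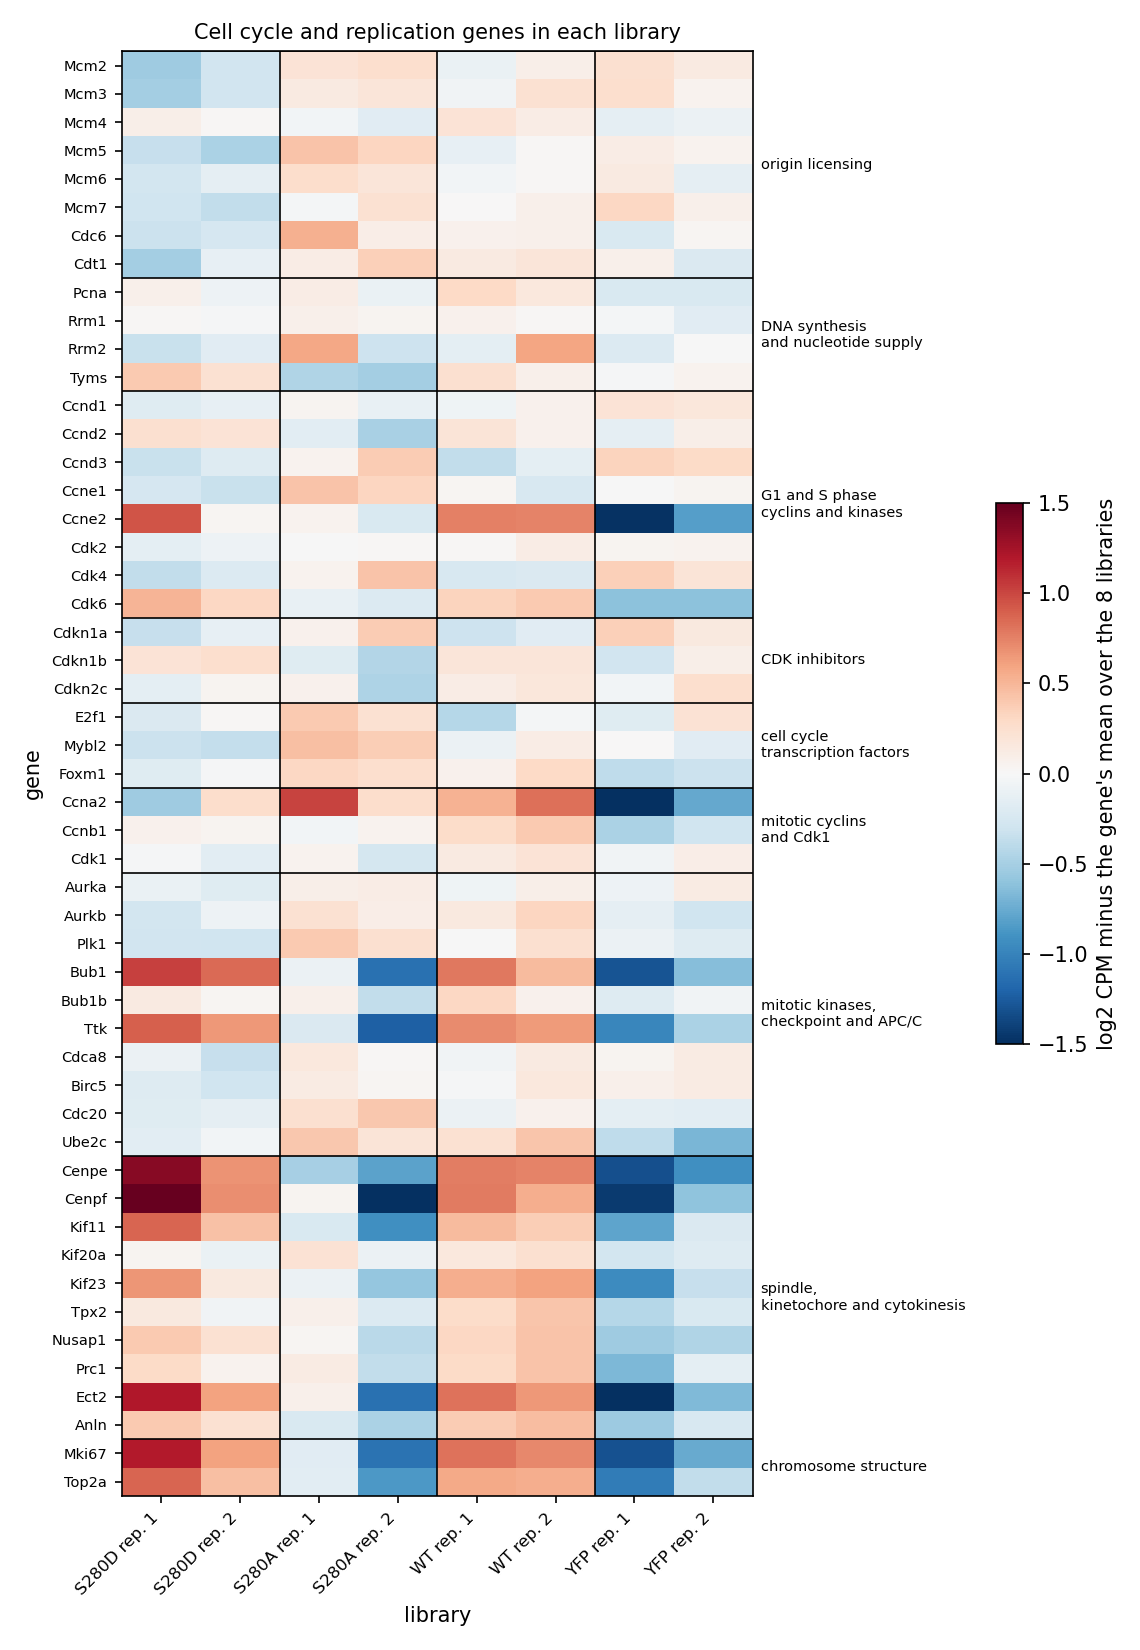
Level of each of the 51 genes in each library as log2 CPM relative to its mean over the 8 libraries, with genes down the page grouped by role and libraries across. Colours run from blue (lower) to red (higher) and are capped at 1.5 in either direction; the spindle, kinetochore and cytokinesis rows have a median of 0.526 and 0.23 in S280D and of -0.73 and -0.289 in YFP.

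Origin licensing genes were lower in S280D than in S280A for 7 of 8 members, beside 18% of all genes, with a median log2 fold change of -0.55. Mcm5, a subunit of the MCM helicase that unwinds DNA at the replication fork (chr19:14523553-14561278, Rnor_6.0 as in the table), had 19.3 and 17.7 CPM in S280D, 33.1 and 30.8 CPM in S280A, 22.6 and 24.9 CPM in WT, and 26.6 and 25.5 CPM in YFP. Both S280D libraries lay below all others, and both S280A libraries above all others. The level in S280D was 0.579-fold that in S280A (log2 -0.79 ± 0.14, SE, adjusted p = 0.00284), and against YFP the log2 fold change was -0.50 ± 0.14 (adjusted p = 0.0227). S280A exceeded WT by 0.43 ± 0.14 (adjusted p = 0.0447).

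Mcm2, another helicase subunit (chr4:120825698-120840111), had 25.8 and 30.7 CPM in S280D, 43.3 and 44.7 CPM in S280A, 35.1 and 39.9 CPM in WT, and 44.4 and 41.3 CPM in YFP. The S280D libraries were the lowest again, and those of S280A and YFP overlapped. The log2 fold change was -0.64 ± 0.14 for S280D against S280A (adjusted p = 0.00598) and -0.60 ± 0.14 against YFP (adjusted p = 0.00913). Mcm3 (chr9:26914056-26932201) had 18.3 and 21.4 CPM in S280D, 28.6 and 29.6 CPM in S280A, 25 and 30.6 CPM in WT, and 31 and 27 CPM in YFP. Only the S280D libraries stood apart, and the log2 fold change was -0.55 ± 0.16 against either S280A or YFP (adjusted p = 0.0193 and 0.0238).

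Mcm7 (chr12:19306606-19314016) had 33.7 and 31.9 CPM in S280D, 40.6 and 48.6 CPM in S280A, 41.5 and 43.5 CPM in WT, and 51.4 and 43.5 CPM in YFP. It was lowest in S280D, by a log2 fold change of -0.44 ± 0.14 against S280A and -0.53 ± 0.14 against YFP (adjusted p = 0.0287 and 0.0167). Cdc6, which loads the helicase with Cdt1 (chr10:86819471-86833402), had 7.74 and 8.10 CPM in S280D, 14 and 10.3 CPM in S280A, 10.1 and 10.2 CPM in WT, and 8.20 and 9.81 CPM in YFP. Its S280D libraries were the lowest, and the replicates of S280A lay far apart. It fell in S280D relative to S280A (log2 -0.62 ± 0.20, adjusted p = 0.0288), and the value against YFP was -0.19 ± 0.20 (adjusted p = 0.495). Mcm6 and Cdt1 fell in S280D relative to S280A by 0.43 and 0.55 on the log2 scale (adjusted p = 0.0282 and 0.0366).

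Mcm4 was the exception, with a log2 fold change of 0.16 ± 0.12 between S280D and S280A (adjusted p = 0.311), and with only 55.9% of its reads mapped uniquely. Against YFP, 4 licensing genes fell in S280D (median log2 fold change -0.37), beside 13.7% of all genes, and none passed in WT (median -0.04). With lane as a covariate 1 of the 8 passed in S280D against YFP, as lower (median -0.38), beside 13.3% of all genes called. Between S280D and WT all 8 had negative values (median -0.37), of which none passed and 5 had an unadjusted p under 0.05, beside 4.88% of all genes.

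E2F sites are known from MCM promoters, and the members' promoters were searched for their letters. RefSeq promoters on GRCr8 (250 bases before to 50 after the gene start) were found for 38 of the 51 members. The letters TTTCCCGC, TTTGGCGC, TTTCGCGC or TTTGCCGC, searched on both strands as an E2F site, were in all 6 licensing promoters found, in 8 of the 38 member promoters (21.1%), and in 2.14% of all 33469 promoters. The other members with the letters were Tyms and Cdk1. A match is a description of letters and not of binding. The promoters of Mcm5 (chr19:13488563-13488862, + strand) and Mcm2 (chr4:122918045-122918344, − strand), the licensing genes with the smallest p over the 4 groups, are shown with E2F letters, CCAAT boxes and the CHR letters TTTGAA in capitals, on either strand.
Mcm5: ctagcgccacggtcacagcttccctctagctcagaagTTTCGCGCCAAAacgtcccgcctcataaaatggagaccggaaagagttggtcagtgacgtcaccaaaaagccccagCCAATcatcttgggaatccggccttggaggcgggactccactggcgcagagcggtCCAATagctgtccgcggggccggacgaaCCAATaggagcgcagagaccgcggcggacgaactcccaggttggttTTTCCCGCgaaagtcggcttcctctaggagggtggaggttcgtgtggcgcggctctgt
Mcm2: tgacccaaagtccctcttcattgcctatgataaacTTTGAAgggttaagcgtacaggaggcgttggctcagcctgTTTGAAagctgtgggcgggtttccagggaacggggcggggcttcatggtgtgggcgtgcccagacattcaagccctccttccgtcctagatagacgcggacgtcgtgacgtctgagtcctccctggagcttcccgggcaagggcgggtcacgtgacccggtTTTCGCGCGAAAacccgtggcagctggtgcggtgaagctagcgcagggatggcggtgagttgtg
In Mcm5 the E2F letters begin 213 and 8 bases before the gene start, overlapping copies being merged into 1 run. In Mcm2 a palindromic run of E2F letters begins 14 bases before it, and CHR letters begin 215 and 175 bases before it. Over the 8 members with E2F letters, 1 was higher and 6 lower in S280D than in S280A (median log2 fold change -0.49), and over the 30 without, 12 were higher and 7 lower (median 0.08). The shares of all genes were 21.3% higher and 18% lower. The 6 lower genes are the 6 licensing genes with a promoter, so this split repeats the result by role. The half-site AGGTCA, bound by nuclear receptors such as PPARα, was in 4 of the 38 member promoters (10.5%) and 16.2% of all promoters.

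DNA synthesis genes mostly did not pass the test. Tyms, thymidylate synthase (chr9:121918946-121931564), had 7.06 and 6.33 CPM in S280D, 3.93 and 3.78 CPM in S280A, 6.35 and 5.66 CPM in WT, and 5.33 and 5.57 CPM in YFP. The S280A libraries were the lowest and did not overlap any other group, and the log2 fold change for S280D against S280A was 0.80 ± 0.22 (adjusted p = 0.0149). Pcna, the sliding clamp of DNA polymerase (chr3:124880697-124884570), had 91 and 81.7 CPM in S280D, 92.9 and 80.2 CPM in S280A, 106 and 96 CPM in WT, and 73.7 and 73.6 CPM in YFP. It was highest in WT and lowest in YFP, and WT exceeded YFP by 0.46 ± 0.12 on the log2 scale (adjusted p = 0.0278).

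The 2 subunits of ribonucleotide reductase, which makes deoxyribonucleotides, passed in no comparison. Rrm1 (chr1:167538386-167562687) had 110 and 108 CPM in S280D, 114 and 112 CPM in S280A, 113 and 110 CPM in WT, and 107 and 96.8 CPM in YFP. Rrm2 (chr6:43884677-43889515) had 6.33 and 7.10 CPM in S280D, 12 and 6.44 CPM in S280A, 7.25 and 12 CPM in WT, and 6.97 and 7.97 CPM in YFP. In S280A and WT the replicates of Rrm2 lay far apart, and 63.5% of its reads mapped uniquely.

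Among the cyclins and kinases of G1 and S phase, individual genes went opposite ways. Cdk6, a partner of D-type cyclins (chr4:27785646-27966398), had 95 and 82.6 CPM in S280D, 61.7 and 58.2 CPM in S280A, 84.1 and 88.1 CPM in WT, and 43.8 and 43.7 CPM in YFP. S280A lay between YFP and the other constructs, with no overlap on either side. The level was 2.03-fold in S280D and 1.97-fold in WT relative to YFP (log2 1.02 ± 0.12 and 0.98 ± 0.12, adjusted p = 0.000754 and 0.0023). S280D exceeded S280A by 0.57 ± 0.12 (adjusted p = 0.00523), S280A against WT gave -0.52 ± 0.12 (adjusted p = 0.0137), and the value of S280A against YFP was 0.46 ± 0.12 (adjusted p = 0.286).

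Cdk4, the other kinase of that pair and the member with the highest level per kilobase of exon, at 279 CPM per kb, went the other way (chr7:70349862-70352418). It had 193 and 217 CPM in S280D, 258 and 336 CPM in S280A, 212 and 214 CPM in WT, and 318 and 286 CPM in YFP. S280D and WT lay below S280A and YFP with no overlap. The log2 fold change was -0.54 ± 0.14 for S280D against S280A, -0.56 ± 0.14 for S280D against YFP, 0.48 ± 0.14 for S280A against WT and -0.50 ± 0.14 for WT against YFP (adjusted p = 0.0124, 0.013, 0.0297 and 0.0296). Ccnd3, a D-type cyclin (chr9:15404821-15410943), had the same order, with 110 and 121 CPM in S280D, 144 and 182 CPM in S280A, 108 and 126 CPM in WT, and 176 and 169 CPM in YFP. Again the S280D and WT libraries were all lower than those of S280A and YFP. The log2 fold changes in those comparisons were -0.49 ± 0.14, -0.58 ± 0.14, 0.48 ± 0.14 and -0.56 ± 0.14 (adjusted p = 0.017, 0.0108, 0.0291 and 0.0187).

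The E-type cyclins, which activate Cdk2 at the start of S phase, differed from each other. Ccne1 (chr1:94485831-94494980) had 12.9 and 12.2 CPM in S280D, 20.6 and 19.2 CPM in S280A, 15.6 and 13 CPM in WT, and 15.3 and 15.8 CPM in YFP. It was highest in S280A and lowest in S280D (log2 -0.66 ± 0.16 for S280D against S280A, adjusted p = 0.00976). Ccne2 (chr5:24434871-24446406) had 4.69 and 2.50 CPM in S280D, 2.53 and 2.09 CPM in S280A, 4.15 and 4.11 CPM in WT, and 0.878 and 1.38 CPM in YFP. All construct libraries exceeded YFP, by 1.68 ± 0.38 in S280D and 1.85 ± 0.39 in WT on the log2 scale (adjusted p = 0.00895 and 0.0111), and by 1.02 ± 0.41 in S280A, which did not pass (adjusted p = 0.39). Of the rest, Ccnd2 rose in S280D relative to S280A (0.54 ± 0.14, adjusted p = 0.0119), Ccnd1 fell in S280D relative to YFP (-0.34 ± 0.11, adjusted p = 0.0369), and Cdk2 passed in none of the comparisons.

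CDK inhibitors brake the same kinases, and 2 of the 3 changed. Cdkn1a, which encodes p21, a target of p53 (chr20:6351457-6358864), had 264 and 308 CPM in S280D, 352 and 438 CPM in S280A, 271 and 298 CPM in WT, and 431 and 373 CPM in YFP. The S280D and WT libraries all lay below those of S280A and YFP, as for Cdk4 and Ccnd3. The log2 fold change was -0.47 ± 0.14 for S280D against S280A, -0.49 ± 0.14 for S280D against YFP, 0.47 ± 0.14 for S280A against WT and -0.50 ± 0.14 for WT against YFP (adjusted p = 0.023, 0.0236, 0.0323 and 0.0318).

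Cdkn1b, which encodes p27 and holds resting cells in G1 (chr4:168689162-168693964), had 159 and 164 CPM in S280D, 121 and 101 CPM in S280A, 155 and 155 CPM in WT, and 112 and 146 CPM in YFP. Here S280D and WT were the higher groups, with a log2 fold change of 0.54 ± 0.14 for S280D against S280A (adjusted p = 0.0138) and -0.48 ± 0.14 for S280A against WT (adjusted p = 0.032). Cdkn2c, an inhibitor of Cdk4 and Cdk6 (chr5:129347731-129352886), had 12.4 and 14.2 CPM in S280D, 14.3 and 9.98 CPM in S280A, 14.8 and 15.4 CPM in WT, and 13.4 and 16.3 CPM in YFP, and passed in no comparison.

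**Figure D2:**
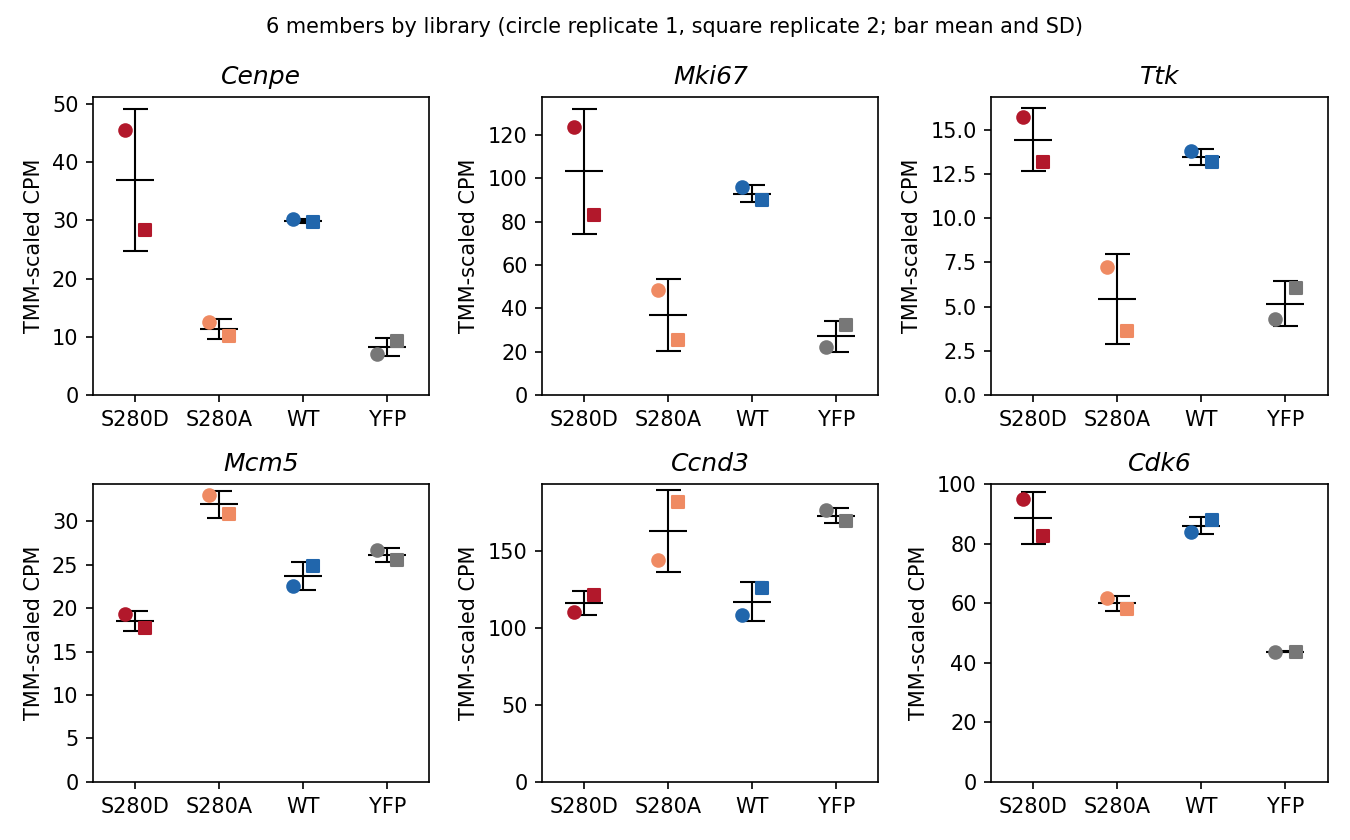
TMM-scaled CPM (vertical axis, from 0) of 6 genes in S280D, S280A, WT and YFP, with circles for replicate 1, squares for replicate 2 and bars for the mean ± SD (n = 2). Cenpe reaches 45.6 CPM in S280D and at most 9.35 CPM in YFP, whereas Mcm5 is lowest in S280D and Ccnd3 is lower in S280D and WT than in S280A and YFP.

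Of the transcription factors that drive the cycle, Mybl2, the B-Myb subunit of the mitotic activator complex (chr3:159421670-159450086), differed most. It had 28.7 and 28 CPM in S280D, 49 and 46.2 CPM in S280A, 33.6 and 38.6 CPM in WT, and 36 and 31.8 CPM in YFP. S280A was above every other group and S280D below every other group. The log2 fold change was -0.75 ± 0.13 for S280D against S280A (adjusted p = 0.00286) and 0.40 ± 0.13 for S280A against WT (adjusted p = 0.0477).

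Foxm1, which works with B-Myb on mitotic genes (chr4:161685257-161696305), had 10.6 and 12 CPM in S280D, 15 and 14.3 CPM in S280A, 12.6 and 14.8 CPM in WT, and 9.25 and 9.66 CPM in YFP. Both YFP libraries were the lowest, and WT exceeded YFP by 0.53 ± 0.17 (adjusted p = 0.0496), a call lost in 7 of the alternative fits that kept every library of both groups. E2f1, an activator of replication genes (chr3:150047825-150073721), had 6.33 and 7.47 CPM in S280D, 9.69 and 8.62 CPM in S280A, 5.5 and 7.21 CPM in WT, and 6.50 and 8.53 CPM in YFP. Its S280A libraries were the highest, but no comparison passed in the main fit (-0.41 ± 0.22 for S280D against S280A, adjusted p = 0.158). With the exon length offset described below, S280D against S280A passed (-0.72, adjusted p = 0.0177). So did S280A against WT with that offset (0.76, adjusted p = 0.0228).

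The mitotic cyclins were lowest in YFP. Ccnb1, cyclin B1, which activates Cdk1 at the entry into mitosis (chr2:30783914-30791221), had 19.4 and 19.1 CPM in S280D, 18 and 19.2 CPM in S280A, 22.6 and 24.5 CPM in WT, and 13.4 and 15.1 CPM in YFP. WT was highest with no overlap, and the log2 fold change over YFP was 0.43 ± 0.15 in S280D and 0.72 ± 0.15 in WT (adjusted p = 0.0475 and 0.0111). Ccna2, cyclin A2 (chr2:123275880-123282214), was the member with the lowest level per kilobase, 0.426 CPM per kb, and rested on as few as 5 reads in a library, of which 59.2% over all libraries mapped uniquely. It had 0.604 and 1.05 CPM in S280D, 1.76 and 1.05 CPM in S280A, 1.25 and 1.55 CPM in WT, and 0.293 and 0.511 CPM in YFP. YFP was below every construct, and WT passed against it (1.76 ± 0.56, adjusted p = 0.0467), though not on unique reads (adjusted p = 0.0779). Cdk1, the mitotic kinase (chr20:20576376-20591549), had 67.2 and 61 CPM in S280D, 70.8 and 56.6 CPM in S280A, 74.8 and 78.8 CPM in WT, and 65.7 and 73.3 CPM in YFP, and passed in no comparison.

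Mitotic kinases, checkpoint proteins and regulators of the anaphase-promoting complex (APC/C) divided. Bub1 and Ttk, kinases of the spindle checkpoint, rose in S280D, while Plk1 and Cdc20 fell relative to S280A. Bub1 (chr3:120373603-120404910) had 14.9 and 13.2 CPM in S280D, 6.88 and 3.38 CPM in S280A, 12.7 and 10.2 CPM in WT, and 2.99 and 4.70 CPM in YFP. S280D and WT were above S280A and YFP with no overlap, and the S280A replicates differed by more than those of S280D. The log2 fold change was 1.44 ± 0.30 for S280D against S280A, 1.86 ± 0.30 for S280D against YFP, -1.15 ± 0.31 for S280A against WT and 1.57 ± 0.31 for WT against YFP (adjusted p = 0.0052, 0.00213, 0.0222 and 0.00864).

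Ttk (chr8:91368110-91405993) had 15.7 and 13.2 CPM in S280D, 7.23 and 3.62 CPM in S280A, 13.8 and 13.2 CPM in WT, and 4.27 and 6.08 CPM in YFP. Its order of groups was that of Bub1, with changes of 1.40 ± 0.28, 1.48 ± 0.28, -1.30 ± 0.29 and 1.37 ± 0.28 in the same comparisons (adjusted p = 0.00434, 0.00391, 0.012 and 0.0098). Plk1, the polo-like kinase that drives centrosome maturation (chr1:192115965-192125989), had 32.7 and 32.6 CPM in S280D, 52.4 and 47.4 CPM in S280A, 39.8 and 47.2 CPM in WT, and 37.7 and 34.9 CPM in YFP. It was lowest in S280D and highest in S280A (log2 -0.61 ± 0.13 for S280D against S280A, adjusted p = 0.00617).

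Cdc20, the activator of the APC/C in mitosis (chr5:137260727-137264931), had 36.8 and 37.9 CPM in S280D, 49.4 and 55.2 CPM in S280A, 39.3 and 43.6 CPM in WT, and 37.8 and 37.4 CPM in YFP. S280A was above every other group, and WT was above S280D and YFP, which overlapped. S280D against S280A gave -0.48 ± 0.13 (adjusted p = 0.0123). Ube2c, the ubiquitin-conjugating enzyme of the APC/C (chr3:161236897-161241159), had 33.9 and 36.8 CPM in S280D, 49.99 and 43.2 CPM in S280A, 44.3 and 50.4 CPM in WT, and 28.9 and 23.5 CPM in YFP. All 3 constructs lay above YFP, by 0.43 ± 0.15 in S280D, 0.83 ± 0.15 in S280A and 0.85 ± 0.15 in WT (adjusted p = 0.0474, 0.113 and 0.00608), so that the value in S280A did not pass despite its size. Of the other 5, Aurkb, a kinase of the chromosomal passenger complex, rose in WT relative to YFP (0.45 ± 0.13, adjusted p = 0.0335), but did not pass with an exon length offset (0.26, adjusted p = 0.221). Aurka, Bub1b, Cdca8 and Birc5 passed in no comparison without that offset.

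Spindle, kinetochore and cytokinesis genes gave the most uniform result. Of 10, 7 were higher in S280D than in S280A (median log2 fold change 0.70), beside 21.3% of all genes. Against YFP 8 were higher in S280D (0.92), beside 17.1%. In S280A 6 were lower than in WT (-0.83), beside 15.9%, and in WT all 10 were higher than in YFP (0.88), beside 12.2%. None passed in the other direction. WT and YFP lay in different lanes, and with lane as a covariate 0 of the 51 members passed in WT against YFP. With the exon length offset Kif20a no longer passed there (adjusted p = 0.0884). Between S280D and WT the median was -0.08 and none passed.

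Cenpe, a kinesin that holds chromosomes to spindle microtubules (chr2:240396151-240454747), had 45.6 and 28.3 CPM in S280D, 12.5 and 10.1 CPM in S280A, 30.2 and 29.7 CPM in WT, and 7.09 and 9.35 CPM in YFP. The S280D and WT libraries were all well above those of S280A and YFP, although the S280D replicates differed. The level in S280D was 3.27-fold that in S280A and 4.50-fold that in YFP (log2 1.71 ± 0.23 and 2.17 ± 0.24, adjusted p = 0.00166 and 0.000702). S280A against WT gave -1.40 ± 0.24 and WT against YFP 1.86 ± 0.24 (adjusted p = 0.00772 and 0.00248).

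Anln, anillin of the contractile ring (chr8:23337620-23390773), had 67.6 and 60.3 CPM in S280D, 44 and 37.2 CPM in S280A, 67.3 and 71.2 CPM in WT, and 35.4 and 43.7 CPM in YFP. S280D and WT again lay above S280A and YFP, by 0.66 ± 0.14 for S280D against S280A (adjusted p = 0.00634). Only 31.9% of its reads mapped uniquely, and on unique reads alone the 4 comparisons still passed. Ect2, which activates RhoA in cytokinesis (chr2:112769384-112831476), had 26.3 and 17.3 CPM in S280D, 12 and 5.23 CPM in S280A, 20.04 and 17.9 CPM in WT, and 3.86 and 7.20 CPM in YFP. The S280A replicates lay far apart, and S280D against S280A still passed (1.33 ± 0.35, adjusted p = 0.0137), as did S280D against YFP (1.97 ± 0.36, adjusted p = 0.00357).

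Kif23, a kinesin of the central spindle (chr8:66866081-66893196), had 75.2 and 52.9 CPM in S280D, 44.9 and 31.8 CPM in S280A, 69.4 and 72.2 CPM in WT, and 24.8 and 37.5 CPM in YFP. Nusap1, which bundles spindle microtubules (chr3:111422266-111452971), had 39.6 and 35.5 CPM in S280D, 31 and 22.9 CPM in S280A, 37.5 and 40.7 CPM in WT, and 20.8 and 22.1 CPM in YFP. Both had S280D and WT above S280A and YFP, with a log2 fold change of 0.74 ± 0.22 and 0.48 ± 0.16 for S280D against S280A (adjusted p = 0.0237 and 0.035). Of the other 5, the kinetochore protein Cenpf and the kinesin Kif11 rose in S280D relative to S280A (1.78 ± 0.44 and 1.20 ± 0.25, adjusted p = 0.0103 and 0.00481), and Kif20a, Tpx2 and Prc1 did not pass in that comparison.

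Mki67, the nuclear proliferation marker Ki-67 that coats mitotic chromosomes (chr1:207993894-208020454), had 124 and 82.9 CPM in S280D, 48.5 and 25.3 CPM in S280A, 95.8 and 90.1 CPM in WT, and 22.1 and 32.2 CPM in YFP. Top2a, the topoisomerase that untangles sister chromatids (chr10:86901006-86932154), had 166 and 123 CPM in S280D, 80.9 and 49.6 CPM in S280A, 134 and 132 CPM in WT, and 43.6 and 69.8 CPM in YFP. In both genes every S280D and WT library exceeded every S280A and YFP library. S280D against S280A gave 1.48 ± 0.28 for Mki67 and 1.14 ± 0.25 for Top2a on the log2 scale (adjusted p = 0.00341 and 0.00588), and S280A against WT gave -1.33 ± 0.28 and -1.02 ± 0.25 (adjusted p = 0.0109 and 0.0159).

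The member promoters were also searched for letters known from late cell cycle genes. The CHR letters TTTGAA, on either strand, were in 6 of 9 spindle promoters, 6 of 8 of the mitotic kinase and APC/C group and both of the chromosome genes, against 1 of 6 licensing promoters and 18.3% of all promoters. No spindle promoter among the 9 held the E2F letters, and CCAAT on either strand was in 8 of 9, beside 4 of 6 licensing promoters, 26 of the 38 member promoters (68.4%) and 37.5% of all promoters. The promoters of Ttk (chr8:93634389-93634688, + strand), Mki67 (chr1:199952544-199952843, − strand) and Top2a (chr10:84473044-84473343, − strand), on GRCr8, are shown with CHR letters and CCAAT boxes in capitals, on either strand, for a checkpoint kinase and the pair of chromosome genes. Ttk was chosen after its matches were seen, as holding both: Bub1, another checkpoint kinase, holds neither, and Cenpe holds CCAAT without the CHR letters.
Ttk: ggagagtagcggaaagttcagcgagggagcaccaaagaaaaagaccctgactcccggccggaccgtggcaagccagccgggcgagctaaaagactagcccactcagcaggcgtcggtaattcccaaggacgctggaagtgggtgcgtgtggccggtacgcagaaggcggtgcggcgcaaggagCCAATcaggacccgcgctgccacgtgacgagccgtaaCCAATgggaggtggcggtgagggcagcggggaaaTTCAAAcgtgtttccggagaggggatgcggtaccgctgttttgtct
Mki67: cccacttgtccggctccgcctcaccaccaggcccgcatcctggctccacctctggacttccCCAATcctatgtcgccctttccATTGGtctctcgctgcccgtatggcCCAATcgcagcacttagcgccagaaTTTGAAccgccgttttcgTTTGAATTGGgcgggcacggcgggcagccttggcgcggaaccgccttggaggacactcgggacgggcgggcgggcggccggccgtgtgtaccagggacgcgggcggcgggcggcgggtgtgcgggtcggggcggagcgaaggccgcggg
Top2a: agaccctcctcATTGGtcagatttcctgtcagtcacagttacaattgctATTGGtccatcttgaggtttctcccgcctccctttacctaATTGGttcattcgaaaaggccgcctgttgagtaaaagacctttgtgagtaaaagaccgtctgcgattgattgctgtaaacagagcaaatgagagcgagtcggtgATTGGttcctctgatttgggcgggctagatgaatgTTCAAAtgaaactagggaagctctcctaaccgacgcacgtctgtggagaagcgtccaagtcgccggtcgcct
The CHR letters begin 4 bases after the gene start in Ttk, 117 and 99 bases before it in Mki67, where 1 overlaps a CCAAT box, and 22 bases before it in Top2a. Of the 16 members with CHR letters, 8 were higher and 3 lower in S280D than in S280A (median log2 fold change 0.38), and of the 22 without, 5 were higher and 10 lower (median -0.18). The shares of all genes were 21.3% higher and 18% lower. Between WT and YFP 9 of the 16 were higher and 0 lower (median 0.77), beside 6 higher and 3 lower of the 22 (median 0.06). There the shares of all genes were 12.2% and 7.45%. In both comparisons the higher genes with CHR letters were, apart from Ttk, spindle or chromosome genes. The split thus largely repeats the result by role. The part of these letters in the changes was not tested.

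**Figure D3:**
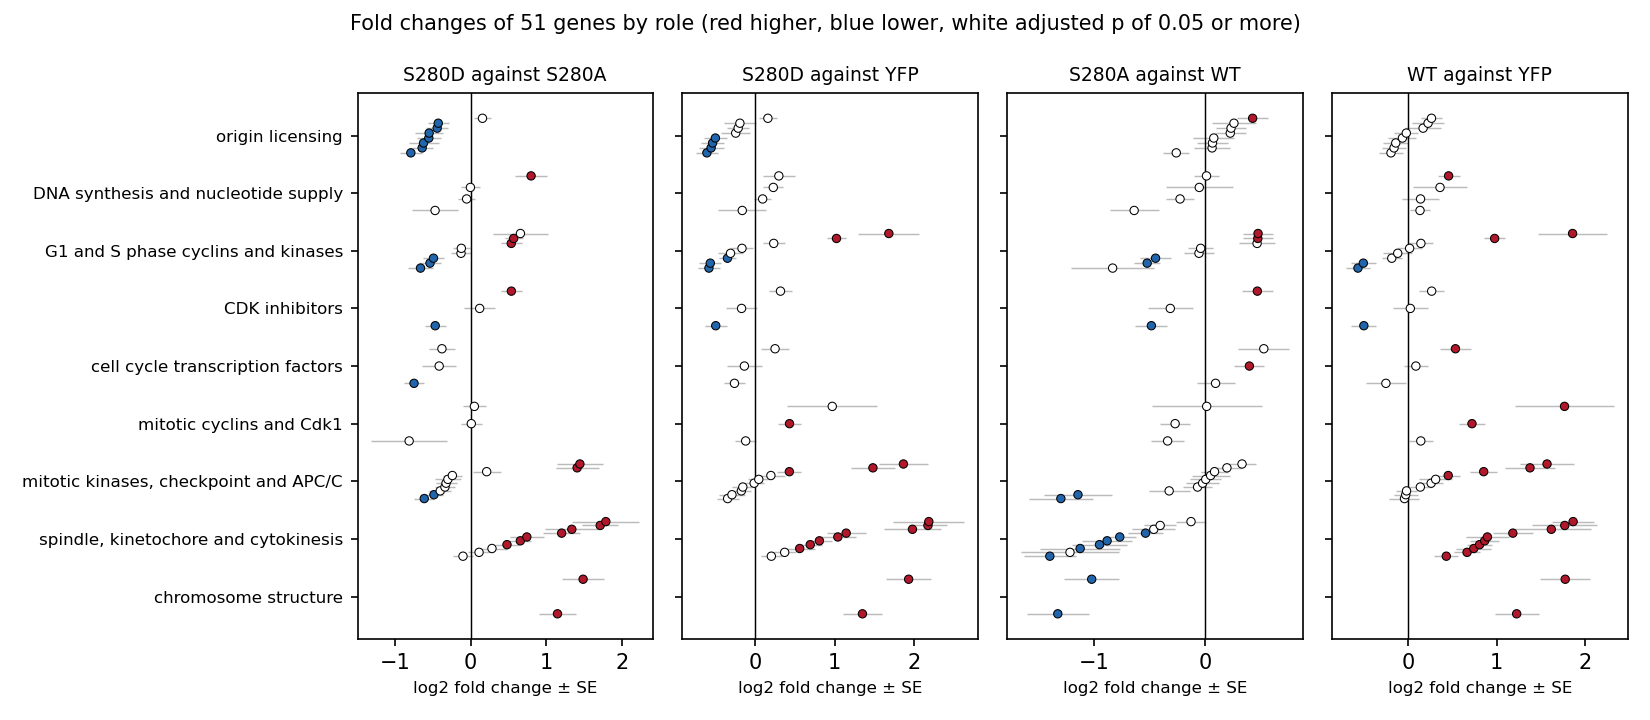
Log2 fold change ± SE of each of the 51 genes (horizontal axis) by role (vertical axis) in 4 comparisons. Red points passed as higher, blue as lower, and white did not pass; 7 of 8 licensing genes are blue and 7 of 10 spindle genes red for S280D against S280A, and all 10 spindle genes are red for WT against YFP.

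Exon length was weighed because the long genes differed between the libraries over the whole table. The spindle genes have a median exon length of 3750 bases (2921 to 10069), and the licensing genes 2991 bases (2239 to 3339). Of the 11 members of 4000 bases or more, 8 were higher and 0 lower in S280D than in S280A, beside 37.4% higher and 10.6% lower among all genes of that class, with a median log2 fold change of 1.20 beside 0.26. Of the 16 members under 2000 bases, 4 were higher and 5 lower (median -0.15 beside -0.17 for all genes of the class). Of the 24 in between, 3 were higher and 9 lower (median -0.31 beside 0.02).

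In WT against YFP 9 of the 11 long members were higher, beside 20.6% of all long genes (median 1.22 beside 0.15). Across the 51 members, Spearman's rho between exon length and log2 fold change was 0.371 for S280D against S280A and 0.442 for WT against YFP, beside 0.24 and 0.186 over all genes. Genes share the same libraries and are not independent.

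With an offset from a loess curve of expression on exon length in each library, 14 members were higher and 20 lower in S280D than in S280A, beside 42.9% of all genes called. The offset moved the median of all genes to -0.13 in that comparison and -0.13 in S280D against YFP, to 0.10 in S280A against WT and to -0.09 in WT against YFP. The licensing median was then -0.68 with 7 of 8 lower, and the spindle median 0.49 with 6 of 10 higher. With the offset 14 members were higher and 9 lower in S280D than in YFP (35.1% of all genes called), 7 higher and 12 lower in S280A than in WT (29.8%), and 19 higher and 3 lower in WT than in YFP (24.2%). Cenpe kept a log2 fold change of 1.22 and Mki67 of 0.94 for S280D against S280A (adjusted p = 0.00124 and 0.00355). Nusap1 no longer passed there (0.20, adjusted p = 0.287), nor in S280A against WT (adjusted p = 0.11). The other calls lost were those of Ube2c and Prc1 in S280D against YFP (adjusted p = 0.153 and 0.0633) and of Foxm1, Aurkb and Kif20a in WT against YFP (adjusted p = 0.114, 0.221 and 0.0884). Calls were also gained. Ccnd1, E2f1, Foxm1, Aurka, Aurkb and Ube2c were newly lower in S280D than in S280A. Their adjusted p was 0.0327, 0.0177, 0.0164, 0.0397, 0.00576 and 0.0124. Mybl2 was newly lower in S280D than in YFP (adjusted p = 0.0265). Ccne1 and E2f1 were newly higher in S280A than in WT (adjusted p = 0.0319 and 0.0228).

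**Figure D4:**
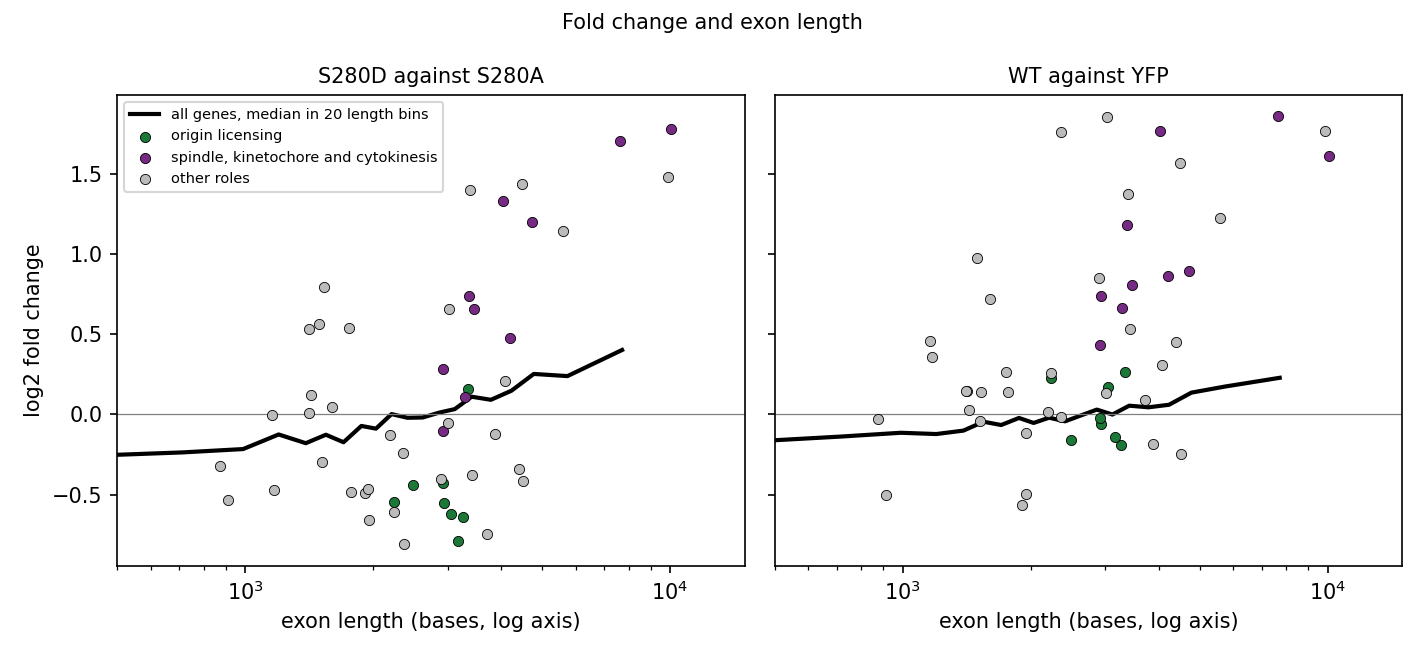
Log2 fold change (vertical axis) against exon length in bases (horizontal log axis) for S280D against S280A and WT against YFP. Points are the 51 genes, coloured by role, and the line is the median of all genes in 20 bins of length. For S280D against S280A the median of the 11 long members was 1.20, against 0.26 for all genes of that class.

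Lane was weighed where the design allows. Within lane 1 the licensing median of S280D against S280A was -0.603 and the spindle median 1.05, and within lane 2 they were -0.403 and 0.345, with 1 library of each group per lane. Within lane 1 the spindle median of S280D against YFP was 1.09 and the licensing median -0.438, and within lane 2 the spindle median of S280A against WT was -0.632. With lane as a covariate 27 members still differed between S280D and S280A (32.3% of all genes). In S280D against YFP 13 were higher and 1 lower (13.3% of all genes), and in S280A against WT 0 were higher and 4 lower (8%). In WT against YFP edgeR called 0 members (0.0725%), with 14 at an unadjusted p under 0.05. The share of all genes at that unadjusted p is not given with the lane covariate, so the 14 are not a result about the members.

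Single libraries weighed on these counts. Without S280D replicate 1, the deepest library, 6 members were higher and 2 lower in S280D than in S280A, and 9 higher and 0 lower than in YFP. Without S280A replicate 2, 3 were higher and 6 lower in S280D than in S280A, and 0 passed in S280A against WT. Without WT replicate 1, 4 passed in WT against YFP and 0 in S280A against WT. Without WT replicate 2 these counts were 13 and 5. Without YFP replicate 1, 7 passed in WT against YFP and 11 in S280D against YFP, all higher. Such fits assume that the lone library of a group varies as the other groups do. The share of all genes called is not given for them, so the drops are not a result about the members.

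Intron reads, which come largely from unspliced transcripts, gave less. Of 45 members with enough of them, 2 were higher and 1 lower in S280D than in S280A, beside 4.54% of all 12988 genes tested on introns. Bub1 (log2 2.80, adjusted p = 0.0495) and Mki67 (1.21, adjusted p = 0.0449) were higher and Cdk4 (-1.17, adjusted p = 0.0363) was lower, each in the direction of its exon reads. These calls rested on 115, 738 and 466 intron reads over all 8 libraries. In S280D against YFP 1 was higher and 1 lower (5.35%), and in WT against YFP 1 was higher (2.02%). In S280A against WT edgeR called none (0.0077%), with 8 at an unadjusted p under 0.05. The share of all genes at that unadjusted p is not given on intron reads, so the 8 are not a result about the members. DESeq2 was not run on intron reads.

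Other genes of the cycle were read from 5 further lists of 134 genes. Of 43 mitosis genes tested, 15 were higher and 3 lower in S280D than in S280A, 17 and 1 in S280D against YFP, 0 and 14 in S280A against WT, and 21 and 0 in WT against YFP (median log2 fold changes 0.32, 0.41, -0.41 and 0.65). Of all genes tested, 21.3% were higher and 18% lower in S280D than in S280A, 17.1% and 13.7% in S280D against YFP, 10.1% and 15.9% in S280A against WT, and 12.2% and 7.45% in WT against YFP. Smc4, a condensin subunit that compacts chromosomes, had 65.3 and 36.2 CPM in S280D, 17 and 13.4 CPM in S280A, 39.1 and 35.9 CPM in WT, and 13.4 and 12.8 CPM in YFP. Its S280D and WT libraries exceeded the others, by 1.74 ± 0.24 for S280D against S280A (adjusted p = 0.00167). The condensin partner Smc2 gave 1.79 ± 0.29 (adjusted p = 0.00204). Smc4 and Smc2 have 4241 and 5373 bases of exon. Of all genes of 4000 bases or more, 37.4% were higher in S280D than in S280A. Cenpk, a kinetochore protein with 1641 bases of exon, rose in WT relative to YFP by 1.81 ± 0.27 (adjusted p = 0.00352).

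Of 43 further replication genes, 7 were higher and 7 lower in S280D than in S280A, and 4 were higher and 0 lower in WT than in YFP. These counts lie near the shares of all genes, 21.3% higher and 18% lower in the first comparison and 12.2% and 7.45% in the second, and are not a result about the list. The origin recognition subunits Orc4 and Orc2 rose in S280D relative to S280A (1.23 ± 0.21 and 1.22 ± 0.22, adjusted p = 0.00241 and 0.00282). Orc4 had 35.5 and 25.5 CPM in S280D, 14 and 12 CPM in S280A, 27.7 and 21 CPM in WT, and 11.2 and 9.45 CPM in YFP, so that S280D and WT were again the higher groups. Rpa3, a subunit of the single-strand DNA-binding protein with 617 bases of exon, rose by 0.75 ± 0.19 for S280D against S280A (adjusted p = 0.012).

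Of 16 genes of the RB and E2F family, 5 were higher and 1 lower in S280D than in S280A, beside 21.3% and 18% of all genes. Rb1, the retinoblastoma protein, which holds back E2F, rose by 0.85 ± 0.19 (adjusted p = 0.00642). Its relative Rbl1 rose by 1.31 ± 0.26 (adjusted p = 0.00384) and the MuvB subunit Lin54 by 0.97 ± 0.27 (adjusted p = 0.0168). Rb1, Rbl1 and Lin54 have 3128, 3000 and 4311 bases of exon. Of 21 genes of the p53 pathway and damage response, 10 were higher and 4 lower in the same comparison, beside the same shares of all genes. They included the checkpoint kinase Atr (1.60 ± 0.24, adjusted p = 0.00185) and the recombination gene Brca2 (1.79 ± 0.32, adjusted p = 0.00293), with 8759 and 10344 bases of exon. The p53 target Tp53inp1, with 1018 bases of exon, rose by 1.27 ± 0.20 (adjusted p = 0.00185), while the p53 target Cdkn1a fell. Among all genes of 4000 bases or more, 37.4% were higher and 10.6% lower in S280D than in S280A. Values with the exon length offset are not given for the genes of the further lists. Of 2 further CDK inhibitors tested, Cdkn2a fell in S280D and in WT relative to YFP (-0.61 ± 0.16 and -0.73 ± 0.17, adjusted p = 0.0183 and 0.016), and Cdkn2b passed in no comparison (0.59 ± 0.22 for S280D against S280A, adjusted p = 0.055).

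The authors' deposited table called 14 members higher and 10 lower in S280D than in S280A, 13 and 6 in S280D against YFP, 3 and 10 in S280A against WT, and 18 and 3 in WT against YFP. All 24, 19, 13 and 21 of these calls from the authors' deposited table were also made by edgeR, in the same direction. The authors' deposited table called 1 member higher in S280A than in YFP and none between S280D and WT. The share of all genes called by the authors' test is not given here. These counts therefore show only which calls both tests made.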

How the data were processed

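Poly(A) RNA of H9C2 cells was amplified by PCR for 15 cycles and sequenced with strand information, per the labels' protocols. The authors deposited a single table with total exon, unique exon and intron reads per gene and library as raw counts, per the file headers. It also holds the authors' own tests as p-values and signed fold changes, of which the calls at an adjusted p under 0.05 and their direction were used; the deposited fold change columns are signed scores that were read for direction only. The build is Rnor_6.0, per the submitters' processing notes. No source used here gives the aligner or how the counting treated strand, so reads of overlapping genes cannot be told apart. Groups were taken from the labels, and lanes from the file headers. The title of the second WT library gives replicate 2 and its description 3. Table columns assigned to no library were 0.

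edgeR 4.0.16 was run on the total exon reads (limma 3.58.1, R 4.3.3): filterByExpr, TMM scaling, and the quasi-likelihood test on all 8 libraries with 1 coefficient per group and 4 residual degrees of freedom, two-sided, with Benjamini-Hochberg adjustment over 12407 genes and a threshold of 0.05 on the adjusted p. The fit had a common dispersion of 0.0176. DESeq2 1.42.0 was an alternative. The others were RLE size factors, no filter, at least 10 exon reads in 2 libraries, only the libraries compared, a replicate block, a lane covariate, unique exon reads, intron reads, a loess offset on exon length (span 0.3), thinning to the smallest library, and leaving out each library. The procedure was tested on simulated data. Reads from PCR without molecular identifiers are not independent molecules, and the smallest library held 14018785 exon reads. Replicate libraries differed by more than sampling noise (chi-square of 13.6 to 25.9 per degree of freedom), so none was counted as a duplicate.

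Values in every library are given for up to 5 members per role with the smallest p over the 4 groups, and for 3 genes at most of each further list. The members, roles, lists and tests were chosen with earlier results of these data known. Promoter letters were counted in RefSeq promoters of GRCr8, matched by symbol. Of the members, 13 had no entry: Mcm4, Cdc6, Rrm2, Ccnd1, Ccnd2, Ccne2, Cdk6, E2f1, Foxm1, Ccna2, Aurkb, Ube2c and Tpx2. Gene coordinates are those of the deposited table, and promoter coordinates are on GRCr8.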

Additional observations from a re-analysis of the deposited data

How the results depend on the processing

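Counts of members called stayed within 1.5 times the main count with RLE size factors, the filter at 10 exon reads in 2 libraries, unique exon reads, the exon length offset, thinning, and a fit of only the libraries compared, in all 6 comparisons. DESeq2 and the fit without a filter moved 1 count each, S280A against YFP, to 1 member called. With the lane covariate the members called numbered 14 in S280D against YFP, 4 in S280A against WT, 0 in WT against YFP and 15 in the test over the 4 groups. On intron reads they numbered 3 in S280D against S280A, 2 in S280D against YFP, 0 in S280A against WT, 1 in WT against YFP and 3 over the 4 groups, from 45 members tested, and the cause was not tested. For the test over the 4 groups, the share of all genes called is not given with the lane covariate or on intron reads. Of the 79 calls of single members with values in every library, 39 were kept and 40 lost with the lane covariate, and 75 were kept with the exon length offset.

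Leaving out 1 library at a time gave 8 to 30 members called in S280D against S280A, 9 to 25 in S280D against YFP, 0 to 20 in S280A against WT, 4 to 25 in WT against YFP, 0 to 1 in S280A against YFP, 0 in S280D against WT, and 19 to 30 over the 4 groups. The lowest values came without S280D replicate 1 (S280D against S280A 8, S280D against YFP 9, 4 groups 19) and without WT replicate 1 (S280A against WT 0, WT against YFP 4), and without S280A replicate 2 S280A against WT also gave 0. No fold change of a single call reversed in these fits. The share of all genes called is not given for these fits either, so the counts are not a result about the members.

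On intron reads 14 log2 fold changes reversed, none of them past the threshold there: for S280D against S280A Cdkn1a 0.0716, Plk1 0.36 and Ect2 -0.20; for S280D against YFP Mcm3 0.32 and Anln -0.39; for S280A against WT Mcm5 -0.28, Cdkn1a -0.39, Mybl2 -0.0444 and Anln 0.20; for WT against YFP Cdkn1a 0.0379, Foxm1 -1.25, Bub1 -0.31, Cenpe -0.29 and Anln -0.60. Over all 8 libraries these genes had from 49 (Foxm1) to 1272 (Anln) intron reads, so some of these values rest on few reads. The cause was not tested.

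Replicate numbers did not pair the libraries: the correlation of replicate differences was 0.205 for S280D with S280A, 0.144 for S280D with WT, -0.144 for S280D with YFP, 0.118 for S280A with WT, -0.173 for S280A with YFP and -0.0916 for WT with YFP. With a replicate block 29 members were called in S280D against S280A, 20 in S280D against YFP, 16 in S280A against WT, 22 in WT against YFP, 0 in S280A against YFP and S280D against WT, and 25 over the 4 groups. The share of all genes called with that block is not given. Depth limits Ccna2, with 5 reads in its lowest library.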

Other observations

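Between S280D and WT, 37 of the 51 members had a negative log2 fold change and 14 a positive one, with a median of -0.18 beside 0.00 for all genes. In 29 members both S280D libraries lay below both WT libraries, and in 3 above, beside 21.2% and 19.4% of all genes tested. The members with an unadjusted p under 0.05 were all lower in S280D: the licensing genes Mcm2, Mcm3, Mcm5, Mcm7 and Cdt1, the mitotic kinases Aurkb and Plk1, the APC/C enzyme Ube2c, the passenger protein Birc5 and the activator Mybl2. Aurkb had the smallest p, at a log2 fold change of -0.40 ± 0.13 (edgeR unadjusted p = 0.00922, adjusted p = 0.802), and had 54.4 and 62.4 CPM in S280D against 72.5 and 82.01 CPM in WT.

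Between S280A and YFP the members with the smallest p were Ube2c, Cdk6, Cdc20, Mybl2 and Foxm1, with higher levels in S280A by 0.83, 0.46, 0.47, 0.49 and 0.63 on the log2 scale (edgeR adjusted p = 0.113, 0.286, 0.286, 0.292 and 0.293). For all but Cdk6 the S280D value against YFP was smaller, at 0.43 for Ube2c, -0.01 for Cdc20, -0.26 for Mybl2 and 0.25 for Foxm1, and for Cdk6 it was 1.02; these comparisons share the YFP libraries. Across the 8 libraries the medians of the licensing genes, on the log2 scale relative to the mean of each gene, were -0.333 and -0.266 for S280D, 0.169 and 0.208 for S280A, -0.0183 and 0.0843 for WT, and 0.126 and 0.0386 for YFP. Those of the spindle genes were 0.526 and 0.23 for S280D, 0.0392 and -0.526 for S280A, 0.433 and 0.449 for WT, and -0.73 and -0.289 for YFP, so that S280A replicate 1 lay above S280A replicate 2 and both YFP libraries. Genes were named in these paragraphs after their values were seen.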
